A study of Homo sapiens with 18 samples.

Results

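Read-through genes are annotated genes whose transcripts start in one gene, run past its end and are spliced into the next gene on the same strand, and whose symbol joins both names. Among 57500 genes in the deposited counts, 123 had a symbol of that form whose parts were both symbols of other genes on the same chromosome and strand. The 244 component genes of these 123 were the genes each read-through gene was compared with. In 122 of the 123 the name gave the components in the order in which they are transcribed, and 109 of the 123 are annotated as protein coding.

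A transcript normally ends when cleavage factors cut the new RNA behind a polyadenylation signal, after which the polymerase is released. Where the signal is passed over, the polymerase can go on into the next gene, and the splicing machinery can join an exon of the first gene to one of the second, usually leaving out the last exon of the first and the first exon of the second. The joined RNA may encode a fusion protein or a truncated one, or may be degraded by nonsense-mediated decay. DNAJC17 is a nuclear J-domain protein with an RNA recognition motif (RRM), found with splicing machinery.

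The data were RNA-seq libraries from ES8, a Ewing sarcoma line, and Rh30, an alveolar rhabdomyosarcoma line, both carrying the repressor dCas9-KRAB used for CRISPR interference. Each line had 3 groups of 3 libraries, named replicates A to C and stated in the methods to come from cells plated in triplicate, so the tests measure the spread between plates. Parental cells received a control guide (sgCTL) or a guide against *DNAJC17* (sgDNAJC17), and cells with a lentiviral 3xFLAG-DNAJC17-dRRM allele, which lacks the RRM and is driven by an EF1 promoter, received sgDNAJC17. All were selected with puromycin for 72 h, and no dRRM library with sgCTL was analysed. The study's methods also give a hygromycin selection for its EF1-driven lentiviral constructs. It would apply to the dRRM cells alone, so its effect cannot be told apart from that of the allele. The comparisons ask whether read-through genes responded to the knockdown in each line, whether they did so beyond their components, and where the dRRM cells stood.

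Libraries held 35342393 to 48245989 counts. *DNAJC17* had 559 to 625 counts in ES8 sgCTL and 59 to 77 in ES8 sgDNAJC17, and 461 to 522 against 81 to 113 in Rh30. The dRRM cells had 9849 to 14449, which include reads from the added allele. Of 6 Ewing markers, all had under 10 counts in every Rh30 library. Of 6 rhabdomyosarcoma markers, *MYOG* and *CHRNA1* were at 0 in the ES8 parental libraries. Between the controls 5 of the 6 were called higher in Rh30, while *PAX3* was lower there, at -0.52 on the log2 scale. Together the 6 lay at 118 to 119 counts per 1000000 counts (CPM) in ES8 sgCTL and 2991 to 3077 in Rh30 sgCTL. In Rh30, 11 epithelial markers together lay at 1.20 to 1.62 CPM with sgCTL, against 13.4 to 19.2 with sgDNAJC17 and 14.4 to 16.7 in the dRRM cells. All 5 of them that could be tested were called higher in both. In ES8 the same sum was 34.3 to 36.3, 34.6 to 39.9 and 40.2 to 44.6 CPM in the 3 groups. In bulk RNA, a change in the number of cells of one type and a change in RNA per cell cannot be told apart.

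How a read can be given to a read-through gene bears on each value. Of the 123, 43 had no exonic base that lies outside every other annotated gene, and for 42 this held even when only genes on the same strand were considered. *HSPE1-MOB4* is one of them, with all of its 890 exonic bases inside its neighbours. Still, 37 of the 43 had at least 1 count. The median over all 123 was 82 bases of their own, and the highest was 6219. With its default settings the counting program leaves out a read that falls on several genes but gives a read pair to the gene that both ends touch. Whether pairs were counted, and whether strand was used, is not given in the sources used here.

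The joins that set 8 of the 11 read-through genes called after sgDNAJC17 apart from their components are printed here as 30 bases of the annotated transcript, read from GENCODE release 44 as mapped to GRCh37. The 15 bases in lower case end the upstream gene's exon and the 15 in capitals begin the downstream gene's exon. In 111 of the 123 an annotated transcript joined the components directly in this way. The first 6 have no exonic base of their own and the other two have some.

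HSPE1-MOB4: ggttctaaaggaaagGATTTCTATAATTGG
INO80B-WBP1: cccccttttggctacCTTCGAGAGCTGTGC
RPL36A-HNRNPH2: attttccggaaaaagCTACACCAAAATTGC
NDUFC2-KCTD14: attttcctgaagaagATGTCTACTGTTGTG
RPL17-C18orf32: gcccagaagaaaaagTTGAGGAGCTCAAGC
URGCP-MRPS24: atgattttccaacagGTGCTGTCCTGGAGC
RBM14-RBM4: gtgacgtggtgaaagGCAAACGAATGCACG
PPT2-EGFL8: atggaggagcaactgCCTGCCAGGCCCACC

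In the *HSPE1-MOB4* transcript, exon 2 of 9 comes from *HSPE1* and exon 3 from *MOB4*, and the coding sequence runs on to the stop codon of *MOB4*. In the *INO80B-WBP1* transcript the join lies between exons 5 and 6 of 8, and the transcript is annotated as a target of nonsense-mediated decay. For each gene the transcript with the fewest exons between the components was chosen, then a coding one before others, then the longest. This choice favours coding transcripts. Over all 123, the transcripts so chosen were coding in 72 and nonsense-mediated decay targets in 31. The coding sequence ended at the stop codon of the downstream gene in 47.

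After sgDNAJC17, the read-through genes that were called were all higher, while 1 other in each line moved down by less than 2-fold. A gene was called when edgeR's quasi-likelihood test gave a Benjamini-Hochberg adjusted p under 0.05 over all genes tested and the change was at least 2-fold. In ES8, 8 of the 46 read-through genes with enough counts to test were called higher and 0 lower. Of all 17143 genes tested in ES8, 1.66% were called higher and 0.286% lower. In Rh30, 5 of 46 were called higher and 0 lower, where 0.767% of all 15391 genes were called higher and 0.786% lower. For the 0 called lower, 5 in ES8 and 4 in Rh30 had a negative change at an unadjusted p under 0.05, and DESeq2 also called 0 in each line. Without the fold requirement, 11 were higher and 1 lower in each line, where 13.6% and 13.8% of all genes were in ES8 and 16.1% and 16.2% in Rh30. The 1 lower was *RTEL1-TNFRSF6B* in ES8, at -0.63 (adjusted p = 0.0122), and *HNRNPUL2-BSCL2* in Rh30, at -0.53 (adjusted p = 0.00991). Of the 46 tested, 18 in ES8 and 16 in Rh30 had a negative change. The other 77 in each line had too few counts, and a gene with few counts in the controls enters the test only if its knockdown libraries are high, which favours higher calls among those tested. Where each library had to hold at least 10 counts, 5 were called higher in ES8 and 1 in Rh30. The share over all genes under that filter is not given here.

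*HSPE1-MOB4* (ENSG00000270757, chromosome 2, 197500413 to 197550726, plus strand, GRCh38) had the smallest adjusted p of the read-through genes in both lines. *HSPE1* encodes the mitochondrial co-chaperonin and *MOB4* a member of the STRIPAK phosphatase complex. Its row held 27, 10 and 22 counts in the ES8 sgCTL replicates A, B and C, 117, 144 and 166 with sgDNAJC17, and 20, 34 and 32 in the dRRM cells. In Rh30 it held 10, 18 and 20 counts with sgCTL, 135, 114 and 134 with sgDNAJC17, and 24, 25 and 27 in the dRRM cells. In both lines every sgDNAJC17 library lay above every library of the other 2 groups. In CPM, with a common scale over the 18 libraries, *HSPE1-MOB4* went from 0.395 ± 0.166 to 3.54 ± 0.399 (SD, n = 3) in ES8, and the fitted log2 fold change was 3.12 (standard error, SE, 0.25; adjusted p = 0.000133). In Rh30 it went from 0.376 ± 0.116 to 3.20 ± 0.263 CPM, with a log2 fold change of 3.09 (SE 0.23, adjusted p = 1.23e-06).

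Neither component of *HSPE1-MOB4* rose to a like degree. In ES8, *HSPE1* fell by 0.37 on the log2 scale (SE 0.05, adjusted p = 0.000853) and *MOB4* had a log2 fold change of 0.07 (SE 0.13, adjusted p = 0.734). In Rh30, both had positive changes under 2-fold, 0.29 for *HSPE1* and 0.31 for *MOB4*. Of the counts on the 3 rows, the read-through row took 0.132% ± 0.0545 in ES8 sgCTL and 1.43% ± 0.138 in ES8 sgDNAJC17. In Rh30 it took 0.125% ± 0.0330 and 0.884% ± 0.0502 (SD, n = 3 each). The log2 ratio of the read-through count to the summed component counts, averaged over both lines, was 3.17 higher with sgDNAJC17. An exact permutation test that exchanged labels within each line, two-sided, gave p = 0.005, the smallest that 400 relabelings allow. Only *HSPE1-MOB4* and *INO80B-WBP1* were tested in this way. The study had already listed both as higher in both lines in these data, so the p gives no separate support.

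*INO80B-WBP1* (ENSG00000274049, chromosome 2, 74455088 to 74460884, plus strand) was the other read-through gene called higher in both lines, out of 38 tested in both. Over all genes tested in both lines, 0.224% were called higher in both and 0.0289% lower in both, the second without a read-through gene. Without the fold requirement 5 read-through genes and 6.17% of all genes were higher in both. *INO80B* encodes a subunit of the INO80 chromatin remodeller and *WBP1* a protein that binds WW domains. The row held 13, 7 and 13 counts in ES8 sgCTL against 70, 47 and 38 with sgDNAJC17, and 15, 17 and 8 in Rh30 sgCTL against 55, 45 and 61. The groups did not overlap in either line. The log2 fold changes were 2.51 (SE 0.37, adjusted p = 0.00124) in ES8 and 2.10 (SE 0.31, adjusted p = 0.0003125) in Rh30. In ES8 the components also had higher values, with log2 fold changes of 0.78 for *INO80B* (adjusted p = 0.0119) and 0.59 for *WBP1* (adjusted p = 0.00303), both under 2-fold. In Rh30 they were at 0.15 and 0.06, with adjusted p = 0.402 and 0.608. The log2 ratio to the components was 1.96 higher with sgDNAJC17, with p = 0.005 in the same exact permutation test.

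**Figure D1:**
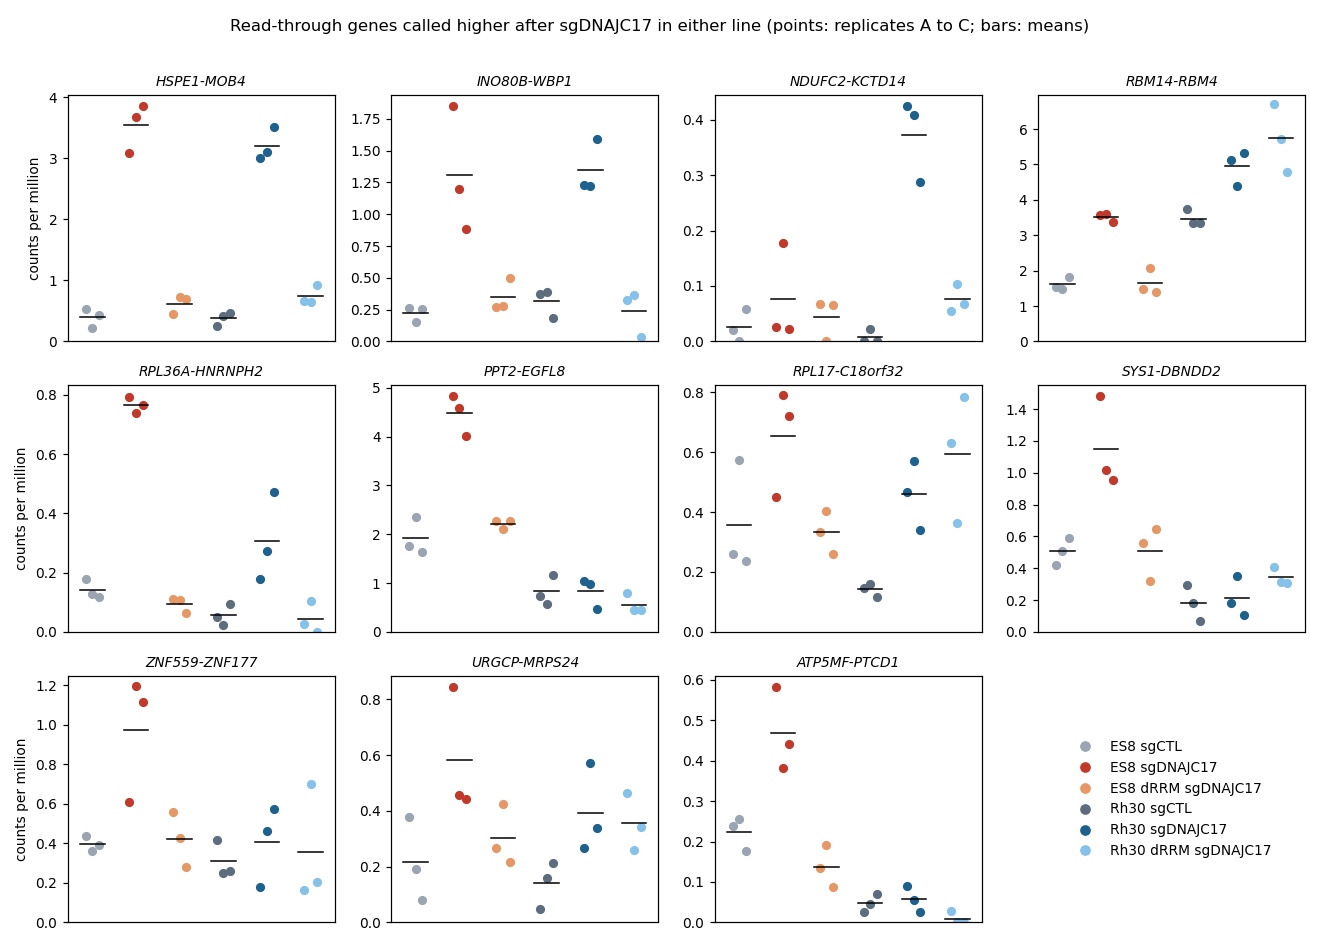
CPM (vertical axes, each from 0) of the 11 read-through genes called higher after sgDNAJC17 in ES8 or Rh30, in each of the 18 libraries; points are replicates A to C and bars are group means. *HSPE1-MOB4* stands above 3 CPM in all 6 sgDNAJC17 libraries of parental cells and below 1 CPM in the other 12.

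**Figure D2:**
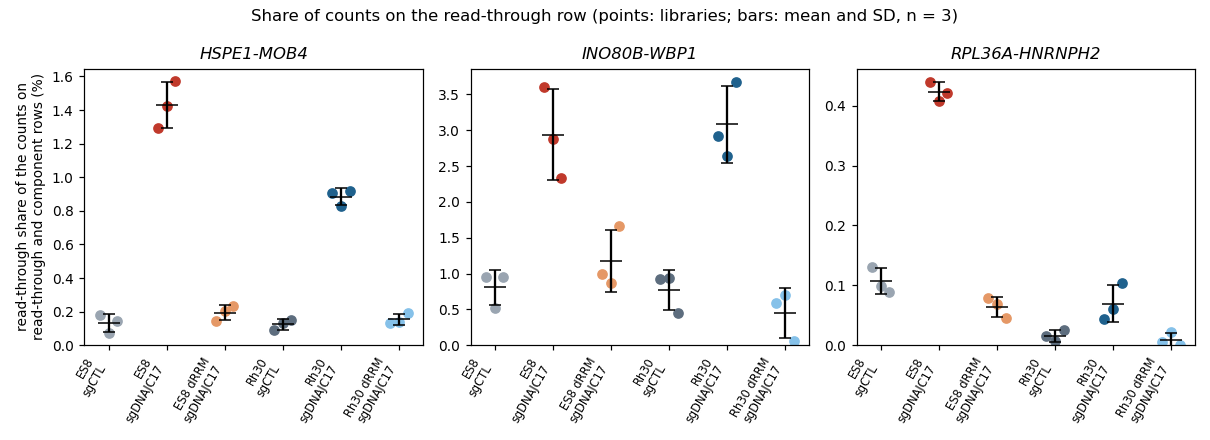
Share of counts (%, vertical axes from 0) that fell on the read-through row out of the read-through row and its 2 component rows, for 3 read-through genes; points are libraries and bars show the mean and SD of 3. For *HSPE1-MOB4* the share is 0.132% with sgCTL and 1.43% with sgDNAJC17 in ES8, 0.125% and 0.884% in Rh30, and 0.194% and 0.154% in the dRRM cells.

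The other 6 called in ES8 divide by the sequence they own. *RPL36A-HNRNPH2*, which joins a ribosomal protein gene on chromosome X to the gene of an RNA-binding protein and has no base of its own, held 9, 6 and 6 counts in sgCTL and 30, 29 and 33 with sgDNAJC17. The log2 fold change was 2.39 (SE 0.31, adjusted p = 0.000813), while *RPL36A* had 0.30 and *HNRNPH2* 0.62. *RPL36A-HNRNPH2* entered the ES8 test only through its sgDNAJC17 libraries, the group in which it was called higher. It failed the filter on low counts in Rh30, where it had 2, 1 and 4 counts against 8, 10 and 18. Summed over replicates, the depth-corrected ratio in Rh30 was 5.28, with a 95% interval of 2.32 to 14.1 that covers counting error only and comes from an exact binomial interval.

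*RBM14-RBM4* and *PPT2-EGFL8* have 550 and 1365 exonic bases of their own. *RBM14* and *RBM4* encode RNA-binding proteins that act in transcription and splicing. *RBM14-RBM4* held 77, 70 and 93 counts in ES8 sgCTL and 135, 141 and 145 with sgDNAJC17, a log2 fold change of 1.09 (SE 0.14, adjusted p = 0.000696). Its row in Rh30 went from 152, 146 and 142 to 230, 161 and 204 counts, a log2 fold change of 0.53 (adjusted p = 0.00625) that is under 2-fold. *PPT2-EGFL8* joins a lysosomal thioesterase gene to an EGF-like domain gene in the major histocompatibility region of chromosome 6. It held 88, 111 and 83 counts in ES8 sgCTL and 183, 180 and 173 with sgDNAJC17, a log2 fold change of 1.20 (SE 0.16, adjusted p = 0.000921). In Rh30 it went from 30, 25 and 50 to 47, 36 and 18 counts, with overlapping groups and a log2 fold change of 0.03 (adjusted p = 0.958).

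*SYS1-DBNDD2*, *ZNF559-ZNF177* and *ATP5MF-PTCD1* were called in ES8 with smaller margins. Their log2 fold changes were 1.15 (adjusted p = 0.0111), 1.27 (adjusted p = 0.0138) and 1.03 (adjusted p = 0.0467). *SYS1-DBNDD2* had 21 to 30 counts with sgCTL and 40 to 56 with sgDNAJC17, and *ATP5MF-PTCD1* had 9 to 12 and 15 to 22. *ATP5MF-PTCD1*, which joins an ATP synthase subunit gene to a gene for mitochondrial RNA processing, was called in 1 of 12 alternatives. It was lost by DESeq2, with library size alone, without the filter, with all 18 libraries in 1 fit, with the replicate block and when any 1 of the 6 libraries was left out. *SYS1-DBNDD2* lost its call without sgCTL replicate A or sgDNAJC17 replicate A, and the latter library stood apart from B and C beyond this gene, as given below. *ZNF559-ZNF177* lost it when replicate B or C of sgCTL or replicate B of sgDNAJC17 was left out.

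All 5 read-through genes called higher in Rh30 have no exonic base of their own. Besides the 2 described, they were *NDUFC2-KCTD14*, *RPL17-C18orf32* and *URGCP-MRPS24*. *NDUFC2*, which encodes a subunit of respiratory complex I, lies upstream of *KCTD14*. *NDUFC2-KCTD14* had 0, 1 and 0 counts in Rh30 sgCTL and 19, 15 and 11 with sgDNAJC17. The depth-corrected ratio of the summed counts was 46.2, with a 95% counting interval of 7.88 to 1865, and the edgeR adjusted p was 0.000345. *NDUFC2-KCTD14* entered this test only through its sgDNAJC17 libraries, the group in which it was called higher. The ratio, interval and p therefore describe the row and give no separate support. *KCTD14* itself was called higher, from 12, 12 and 5 counts to 25, 36 and 33, a log2 fold change of 1.79 (SE 0.39, adjusted p = 0.00340). *KCTD14* was also called in ES8, at 1.84 (adjusted p = 0.0128), where *NDUFC2-KCTD14* had 1, 0 and 3 counts against 1, 7 and 1 and could not be tested.

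*RPL17-C18orf32* begins in a ribosomal protein gene on chromosome 18. It had 6, 7 and 5 counts in Rh30 sgCTL and 21, 21 and 13 with sgDNAJC17, with no overlap and a log2 fold change of 1.69 (SE 0.41, adjusted p = 0.00659). *URGCP-MRPS24*, whose downstream gene encodes a mitochondrial ribosomal protein, had 2, 7 and 9 counts against 12, 21 and 13. Its log2 fold change was 1.45 (SE 0.50, adjusted p = 0.0402). The call was lost without any of 4 of the 6 libraries (sgCTL replicates A and B, sgDNAJC17 replicates B and C). DESeq2 and a fit of all 18 libraries lost it too. In ES8 it had a log2 fold change of 1.38 with adjusted p = 0.0632. Both *RPL17-C18orf32* and *URGCP-MRPS24* entered the Rh30 test only through their sgDNAJC17 libraries, the group in which they were called higher. In these Rh30 libraries the epithelial markers also differed between the groups, as given above. Their part in these results was not tested. In the Rh30 dRRM libraries, where the epithelial marker sum was 14.4 to 16.7 CPM, *HSPE1-MOB4*, *INO80B-WBP1* and *NDUFC2-KCTD14* were called lower than with sgDNAJC17. *RPL17-C18orf32* and *URGCP-MRPS24* were not, with log2 fold changes of 0.35 (adjusted p = 0.436) and -0.12 (adjusted p = 0.836).

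**Figure D3:**
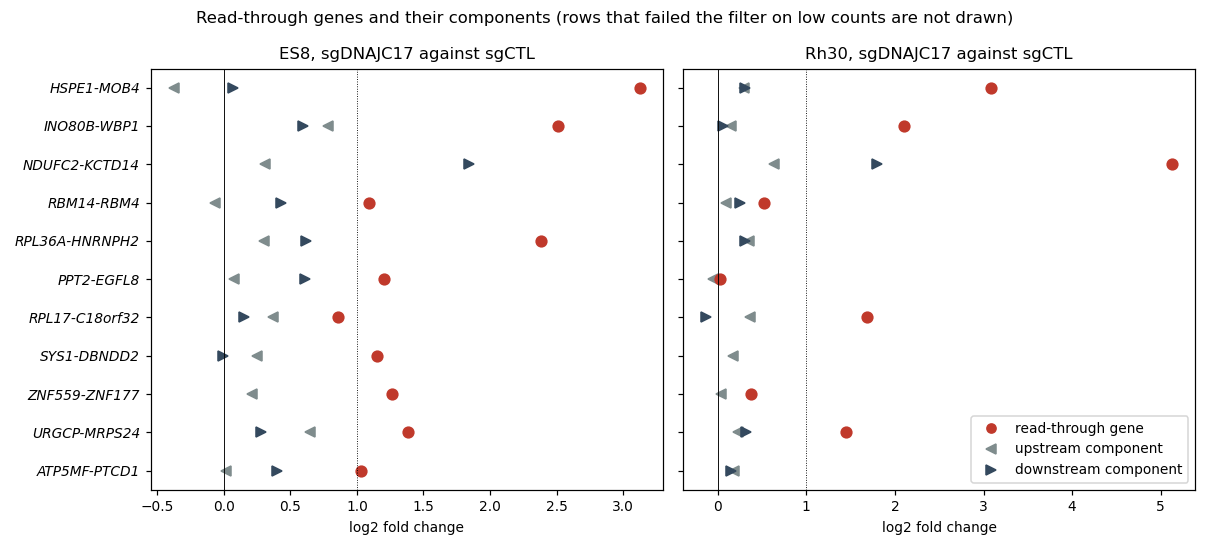
Log2 fold changes after sgDNAJC17 (horizontal axes) of the 11 called read-through genes (circles), their upstream components (left-pointing triangles) and their downstream components (right-pointing triangles) in ES8 and Rh30; the dotted line marks a 2-fold rise. In each row with a circle in ES8 the circle lies to the right of both triangles drawn, and *KCTD14* is the one component past the dotted line in both panels.

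Over all pairs that could be compared, few components were called, while changes of components under 2-fold were not counted. Of the 244 components, 181 were tested in ES8, with *BGLAP* and *KCTD14* called higher and *SAPCD1* lower, and 157 in Rh30, with *KCTD14* higher and *FXYD6* lower. Called higher were 1.10% and 0.637% of those tested, where 1.66% and 0.767% of all genes were. The median log2 fold changes of the components were 0.05 in ES8 and 0.11 in Rh30, between those of all genes and of the read-through genes. The read-through genes tested had medians of 0.24 and 0.26, and all genes tested -0.02 and 0.00. Where all 3 rows were tested, the read-through gene lay above both components in 19 of 38 in ES8 and in 17 of 30 in Rh30, and below both in 10 and 8. Those above both include genes already called higher, some of which passed the filter only through their sgDNAJC17 libraries. Changes of rows with few counts scatter more, so a row can also fall outside both components through noise. No reference for this was made.

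The calls were also counted by the amount of sequence a read-through gene owns. Of the 43 with no exonic base of their own, 8 could be tested in ES8 and 3 were called higher, and 9 could be tested in Rh30 and 5 were called higher. Of the 80 with at least 1 such base, 5 of 38 were called in ES8 and 0 of 37 in Rh30. These counts carry the low-count filter described above, and more so for the 43, whose counts are lower. Of the 11 genes called in either line, 11 are protein coding and have a transcript with a direct join, against 35 and 36 of the 43 that were tested and not called. The median distance between the components was 11269 bases in the 11 and 3006 in the 43.

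**Figure D4:**
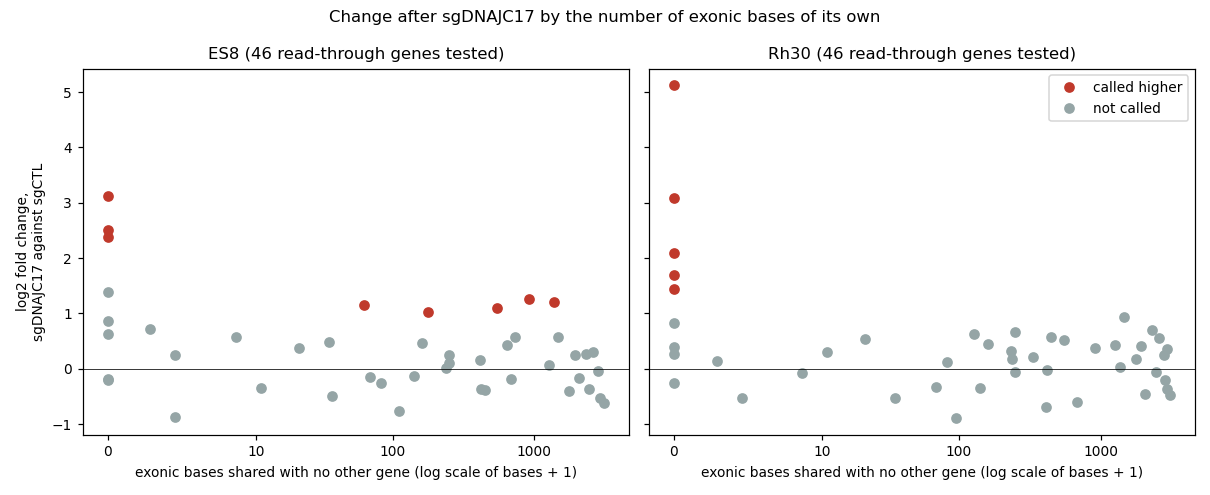
Log2 fold change after sgDNAJC17 (vertical axes) against the number of exonic bases that no other gene shares (horizontal axes, log scale of bases + 1) for the 46 read-through genes tested in each line; red points were called higher. All 5 called in Rh30 and 3 of the 8 called in ES8 are at 0 bases.

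Read-through counts as a whole rose less. All 123 together took 99.2 ± 2.75 of every 1000000 counts, scaled by library total alone, in ES8 sgCTL, 119.5 ± 8.15 with sgDNAJC17 and 101.2 ± 2.68 in the dRRM cells. In Rh30 they took 75.2 ± 2.97, 88.9 ± 2.58 and 102.1 ± 1.04 (SD, n = 3), so the dRRM cells had the highest total there. The 43 without a base of their own took 12.8 ± 0.626 in ES8 sgCTL, 23.4 ± 2.55 with sgDNAJC17 and 14.7 ± 1.21 in the dRRM cells, and 6.66 ± 0.691, 14.3 ± 0.440 and 12.8 ± 1.43 in Rh30. In ES8 each sgDNAJC17 library was above the other 6, whereas in Rh30 dRRM replicate C, at 14.2, lay above sgDNAJC17 replicate B, at 14.1, and replicate A. *NME1-NME2* held the most counts of the 43. Leaving it out after seeing these values gave 3.79 ± 0.157, 9.90 ± 0.104 and 4.13 ± 0.361 in ES8 and 2.85 ± 0.190, 7.86 ± 0.428 and 3.84 ± 0.293 in Rh30, without overlap between sgDNAJC17 and the other groups. Of this smaller sum, the called *HSPE1-MOB4* alone took 0.446 in ES8 sgCTL and 3.82 with sgDNAJC17, and 0.359 and 2.97 in Rh30. *INO80B-WBP1* took 0.250 and 1.40 in ES8, and 0.302 and 1.25 in Rh30. Both sums also hold the other called genes without a base of their own. Their rise and the lack of overlap therefore give no support apart from those calls, and the genes not called were not summed alone. Most single genes stayed low: 14 of the 123 were at 0 in all 18 libraries and 33 had under 10 counts in total.

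The 2 lines were compared through the difference of their responses. One read-through gene of 55 tested differed, with an adjusted p under 0.05 and no fold requirement. Over all 18899 genes tested, 5.23% differed toward a higher and 4.55% toward a lower response in Rh30 (989 and 859 genes, or 640 and 1075 when scaled by library size alone). The gene was *HNRNPUL2-BSCL2* on chromosome 11, which joins a nuclear RNA-binding protein gene to the seipin gene of lipid droplets. It held 485, 498 and 539 counts in ES8 sgCTL and 725, 492 and 522 with sgDNAJC17, and 414, 363 and 427 against 368, 211 and 211 in Rh30. The response was 0.99 lower in Rh30 than in ES8 on the log2 scale, a difference of -0.99 (SE 0.23, adjusted p = 0.00989). Replicate A was the highest of the sgDNAJC17 libraries in both lines. In ES8 sgDNAJC17, replicate A differed from B and C by a chi-squared per gene of 27.5 and 31.5. B and C differed by 2.63. The same 3 values in Rh30 sgDNAJC17 were 16.0, 28.7 and 7.16, so A stood apart beyond this gene. Without ES8 sgDNAJC17 replicate A the difference was -0.72. *HNRNPUL2* differed in the same direction by -0.36 (adjusted p = 0.0460), and *BSCL2* by -0.37 (adjusted p = 0.232). *PPT2-EGFL8* came next, at -1.14 with adjusted p = 0.0525, and *PMF1-BGLAP*, at 0.67 with adjusted p = 0.0772. No read-through gene had a response called higher in Rh30, with 3 at an unadjusted p under 0.05 in edgeR and 0 called by DESeq2.

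In ES8, no read-through gene was called between the dRRM cells and the control cells. Against sgCTL, edgeR called 0 of 46 read-through genes in either direction, 2 having a positive and 1 a negative change at an unadjusted p under 0.05, and DESeq2 called 0. Of all 17199 genes tested, 0.0116% were called higher and 0.0233% lower. Against sgDNAJC17 in parental cells, 7 of 46 were called lower and 0 higher (3 at an unadjusted p under 0.05, and 0 by DESeq2), where 1.49% of all genes were lower and 0.480% higher. The 7 were all among the 8 called higher after sgDNAJC17, and both comparisons use the same sgDNAJC17 libraries. *HSPE1-MOB4* was lower by -2.48 (SE 0.21, adjusted p = 8.36e-05), *RPL36A-HNRNPH2* by -2.96 (adjusted p = 0.00106) and *INO80B-WBP1* by -1.88 (adjusted p = 0.00639). Here too *RPL36A-HNRNPH2* passed the filter only through its sgDNAJC17 libraries. *PPT2-EGFL8*, the eighth, had -0.99 with adjusted p = 0.00191, just under 2-fold. Leaving out 1 library ended the call of *ZNF559-ZNF177* (sgDNAJC17 replicate B or C, dRRM replicate B or C), *ATP5MF-PTCD1* (replicate A or C of either group), *SYS1-DBNDD2* (sgDNAJC17 replicate A or B, dRRM replicate B) and *RBM14-RBM4* (dRRM replicate A or C). *ZNF559-ZNF177* also lost it with library size alone and with the replicate block.

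In Rh30 the dRRM cells differed from both other groups. Against sgCTL, 6 of 45 read-through genes were called higher and 0 lower (2 with a negative change at an unadjusted p under 0.05, and 0 called by DESeq2), where 6.66% of all 15442 genes were called higher and 3.32% lower. Against sgDNAJC17, 1 of 47 was called higher and 3 lower, where 4.42% and 3.36% of all genes were. The 3 lower were *HSPE1-MOB4* at -2.11 (SE 0.23, adjusted p = 1.21e-13), *INO80B-WBP1* at -2.37 (SE 0.37, adjusted p = 3.55e-08) and *NDUFC2-KCTD14* at -2.23 (SE 0.59, adjusted p = 0.000680). *NDUFC2-KCTD14* again passed the filter only through its sgDNAJC17 libraries. Against sgCTL, *HSPE1-MOB4* had a log2 fold change of 0.99 (SE 0.36, adjusted p = 0.0131), just under 2-fold and called by DESeq2, and *INO80B-WBP1* of -0.27 (adjusted p = 0.642). The components of *HSPE1-MOB4* were of a like size in that comparison, 0.70 for *HSPE1* and 0.98 for *MOB4*, and its share of the 3 rows was 0.154% ± 0.0314, against 0.125% ± 0.0330 in sgCTL.

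Apart from *RPL17-C18orf32*, the 6 read-through genes called higher in Rh30 dRRM cells over sgCTL were not among the 5 called after sgDNAJC17, a comparison that uses the same sgCTL libraries. *NME1-NME2*, which joins the genes of 2 nucleoside diphosphate kinases, had 139, 172 and 196 counts in sgCTL and 387, 353 and 362 in the dRRM cells, a log2 fold change of 1.45 (SE 0.12, adjusted p = 1.39e-16). *NME1* and *NME2* rose with it, at 1.06 and 1.19. *BOLA2-SMG1P6* had a log2 fold change of 1.11 (adjusted p = 1.38e-20), *CENPS-CORT* of 1.23 (adjusted p = 5.12e-06) and *RPL17-C18orf32* of 2.05 (adjusted p = 8.69e-05). *RPL17-C18orf32* passed the filter here only through its dRRM libraries, the group in which it was called higher. *RPL17* rose by 1.47, and *CENPS* by 1.00 (adjusted p = 2.69e-11), just under 2-fold. Of the components, 19 of 158 were called higher and 1 lower in this comparison. Scaling by library size alone moved the median log2 fold change of all genes by -0.23 here, turned the calls over all genes from 1028 higher and 512 lower into 422 and 1476, and left 2 of the 6 called, *NME1-NME2* and *RPL17-C18orf32*. The same scaling turned 677 and 515 into 391 and 850 in the comparison with sgDNAJC17, where the 3 lower calls held. Without the fold requirement, 16 of 45 were higher and 1 lower against sgCTL, where 33.8% and 35% of all genes were, and 9 of 47 higher and 3 lower against sgDNAJC17, where 29.4% and 30.5% were. *ZHX1-C8orf76* was the gene called higher over both groups, at 1.01 and 1.05. Its component *C8orf76* rose about as much, at 1.17 over sgCTL and 0.94 over sgDNAJC17, while *ZHX1* was at -0.14 and -0.21. Both calls of *ZHX1-C8orf76* were lost with that scaling. The first was also lost without sgCTL replicate A or C or dRRM replicate B, without the filter on low counts, and with all 18 libraries in 1 fit. The second was also lost without sgDNAJC17 replicate B or dRRM replicate B.

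**Figure D5:**
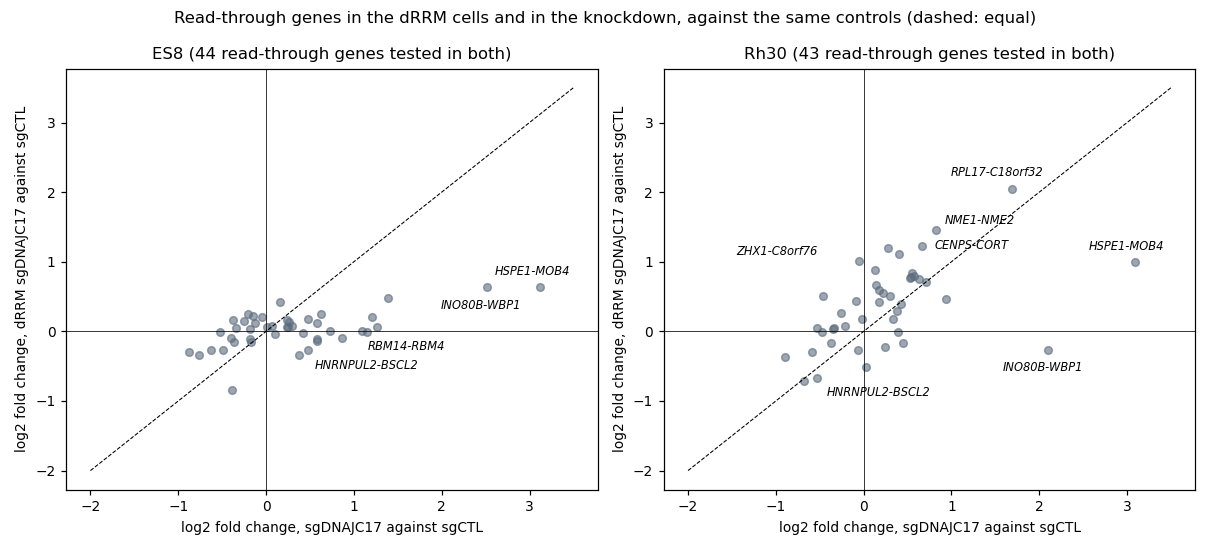
Log2 fold change in dRRM cells with sgDNAJC17 against sgCTL (vertical axes) and in parental cells with sgDNAJC17 against sgCTL (horizontal axes) for read-through genes tested in both comparisons, 44 in ES8 and 43 in Rh30; both axes share the sgCTL libraries and the dashed line marks equal values. *HSPE1-MOB4* and *INO80B-WBP1* lie far below the dashed line in both panels, while in Rh30 *NME1-NME2*, *RPL17-C18orf32* and *ZHX1-C8orf76* lie above it.

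Levels of read-through rows differed widely. The 6 with the highest mean were *BOLA2-SMG1P6* (28.5 CPM), *HNRNPUL2-BSCL2* (9.21), *NME1-NME2* (8.63), *ARMCX5-GPRASP2* (3.92), *PMF1-BGLAP* (3.82) and *RBM14-RBM4* (3.49), which are counts on a row and are not scaled to its length. These are not the share of molecules that run through. *BOLA2-SMG1P6* took 97.2% to 99.8% of the counts on its 3 rows in the group means, with 0 to 4 counts a library on *BOLA2*, which has a near-identical copy elsewhere in the genome, so the split among these rows is uncertain. *RTEL1-TNFRSF6B* took 31.5% to 48.9%, and its downstream component, the decoy receptor gene *TNFRSF6B*, has no exonic base of its own and was at 0 in all 18 libraries. *NME1* and *NME2* are similar paralogs, so the split among the *NME1-NME2* rows may be uncertain too, though both components were well covered. *RPL17* and *RPL36A* have processed pseudogenes elsewhere that can share reads.

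Between the parental controls, 8 of 49 read-through genes were called higher in Rh30 and 16 lower, where 22.2% of all 17925 genes were higher and 28.7% lower. *TLCD4-RWDD3* went from 4 to 8 counts in ES8 sgCTL to 61 to 90 in Rh30 sgCTL, a log2 difference of 3.67 (SE 0.33, adjusted p = 1.42e-13), and *TLCD4* from 115 to 143 counts to 2316 to 2574. *PMF1-BGLAP* was lower in Rh30 by -1.48 (adjusted p = 2.48e-12) and *RTEL1-TNFRSF6B* by -1.75 (adjusted p = 2.90e-12). *HSPE1-MOB4* and *INO80B-WBP1* had like levels in the controls of both lines, 0.395 and 0.376 CPM for the first and 0.221 and 0.315 CPM for the second, within the spread of replicates.

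Genes that end transcripts were looked at beside these results. Of 26 genes for cleavage, polyadenylation and termination, 8 were higher and 5 lower after sgDNAJC17 in ES8 at an adjusted p under 0.05 in edgeR, and 7 and 2 in Rh30, each by less than 2-fold. The shares over all genes at that threshold were the 13.6% and 13.8% in ES8 and 16.1% and 16.2% in Rh30 given above. Their median log2 fold changes were 0.00 and 0.06, beside -0.02 and 0.00 over all genes. *CPSF1*, the largest subunit of the cleavage and polyadenylation specificity factor, fell by 0.63 in ES8 (adjusted p = 0.000662) and by 0.46 in Rh30 (adjusted p = 0.000960) on the log2 scale. *PPP1R10*, a regulator of the phosphatase that acts in termination, was higher by 0.68 in ES8 (adjusted p = 0.000143) and at -0.03 in Rh30 (adjusted p = 0.798). Of the 3 U1 snRNP proteins, whose particle keeps transcripts from ending early, *SNRPC* had the largest changes, 0.41 in ES8 (adjusted p = 0.00149) and 0.42 in Rh30 (adjusted p = 0.00153).

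The genes whose group means ran most like those of *HSPE1-MOB4* over the 6 groups were ranked by Pearson's r of log2(CPM + 0.1) among 13840 genes. The first 5 were ENSG00000272054, a long non-coding RNA (r = 0.994), *EAF1* (0.985), *ZNF266* (0.982), *DCUN1D3* (0.973) and *GRWD1* (0.968). *INO80B-WBP1* came ninth (0.958). These are descriptions over 6 points that share library depth and scaling, and *EAF1*, an elongation factor partner, had 34.9 CPM with sgCTL and 51.8 with sgDNAJC17 in ES8, and 35.6 and 52.6 in Rh30, a far smaller change than that of *HSPE1-MOB4*.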

How the data were processed

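Total RNA was prepared with RNeasy columns, poly(A) RNA was made into libraries with the NEBNext Ultra kit, and reads were trimmed with Trimmomatic 0.36, aligned with STAR 2.5.2b and counted with featureCounts from Subread 1.5.2 by the authors. The deposited values are raw counts per gene of 18 libraries, with no normalization. The labels name GRCh38, while the study's methods name hg19. The gene positions in the deposited annotation columns were used as given. No genome of that build was used here, so the joins were read from the transcript sequences of GENCODE 44 as mapped to GRCh37.

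Read-through genes were every gene whose symbol could be split at a hyphen into the symbols of other genes on the same chromosome and strand. The files give Ensembl IDs, of which 55082 were matched to a symbol and searched and 2418 could not be. The members and lists were chosen with earlier results of these data known. Named in the text, with their components, are the 2 examples given with the rule; those called after sgDNAJC17 (at most 12 by adjusted p) or in a dRRM comparison (at most 4 each); the 6 with the highest mean CPM; the 3 with the smallest p for the response difference; and the 3 with the smallest adjusted p between the lines. The 5 genes most like *HSPE1-MOB4* and members of fixed lists are named too. Components called on their own were named after their values were seen.

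Counts were tested in edgeR 4.0.16 (R 4.3.3) by the quasi-likelihood test, after filterByExpr and scaling by TMM, with one fit per pair of groups over all genes that passed, with Benjamini-Hochberg adjustment. The study's own analysis used DESeq2, which was run as an alternative (1.42.0). The response difference between lines was the interaction in 1 fit of the 12 parental libraries. Log2 ratios added 0.5 to each count and were tested by exact permutation for 2 members, both already listed by the study as higher in these data. Intervals cover counting error only. The fit was tested on simulated data, where it found 200 of 200 changed genes for ES8 with 0 false calls (16910 genes) and 200 of 200 for Rh30 with 2 false calls (15258 genes). Rows with low mean counts were left out of the changed genes, whose median change was 2.01 on the log2 scale in each line. The simulation therefore does not show how well changes near 2-fold, or changes in rows with few counts, are found. No pair of libraries agreed within sampling noise. Same-lettered libraries deviated together in Rh30 sgDNAJC17 and sgCTL (r = 0.579, 0.289 and 0.350 for A, B and C over 11426 genes with a mean count of at least 100). In every other comparison at least 1 letter was under 0.1. The main fits, also that of Rh30, had no term for the letter, and the 400 relabelings did not keep letters together. Pairing by letter entered only as an alternative, through the replicate block and the sign flips.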

Additional observations from a re-analysis of the deposited data

Results flagged for a closer look

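The response of *HNRNPUL2-BSCL2* to sgDNAJC17 differed between the lines by -0.99 on the log2 scale (Rh30 minus ES8, standard error 0.23, interaction test in edgeR, adjusted p = 0.00989). It kept an adjusted p under 0.05 in all 19 alternatives run, in which the difference ranged from -1.18 to -0.72. The row took 10.8% ± 0.727 of the counts on its 3 rows in ES8 sgCTL and 13.7% ± 2.82 with sgDNAJC17, and 24.4% ± 1.83 and 21.9% ± 1.89 in Rh30 (SD, n = 3). On this share the groups did not overlap in ES8 and overlapped in Rh30.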

How the results depend on the processing

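*HSPE1-MOB4* stayed called higher after sgDNAJC17 under every alternative run, at 2.84 to 3.40 in ES8 and 2.87 to 3.27 in Rh30, and so did *INO80B-WBP1* wherever it could be tested. No result changed direction past its threshold. Of the values for single genes, 1293 kept their side of the threshold, 48 lost it and 34 gained it. The cause of the changes was not tested, except that stricter rules test or call fewer genes by construction.

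At an adjusted p under 0.01, 5 were called higher in ES8 after sgDNAJC17 and 4 lower in the ES8 dRRM cells against sgDNAJC17. Without a fold requirement, after sgDNAJC17 11 were higher in Rh30, 5 in both lines, and 1 lower in each line. For the Rh30 dRRM cells, 16 were then higher and 1 lower against sgCTL, and 9 higher against sgDNAJC17, beside 33.8%, 35% and 29.4% of all genes. With a fold of at least 2 required, 0 responses differed between lines. With at least 10 counts in every library, 5 were called higher in ES8, 1 in Rh30 and 1 in both lines, 1 was lower in Rh30 dRRM cells against sgDNAJC17, and 1 was higher and 9 lower in Rh30 than ES8. Without the filter on low counts, 4 were higher in both lines, adding *RPL36A-HNRNPH2* and *URGCP-MRPS24*, and 1 was higher in ES8 dRRM cells against sgDNAJC17. With library size alone, 2 were higher in Rh30 dRRM cells against sgCTL and 0 against sgDNAJC17, where 422 and 391 of all genes were (1028 and 677 in the main fits). Responses that differed between lines numbered 2 by DESeq2, library size alone, at least 10 counts or 1 fit of all 18 libraries, and 3 without the filter. Where no value over all genes stands beside a count, the numbers tested and called under that setting are not given here. Such counts show how the calls moved and cannot be set against all genes.

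Leaving out each library in turn gave 0 to 1 lower after sgDNAJC17 in Rh30, 0 to 1 lower in Rh30 dRRM cells against sgCTL, 0 to 3 higher in them against sgDNAJC17, and 1 to 4 differing responses. Elsewhere it gave 6 to 8 higher in ES8 and 5 to 7 in Rh30 after sgDNAJC17. The shares over all genes with a library left out, or with the replicate block, are not given here either. With the replicate letter as a block, 5 were called higher in Rh30 as before, 3 were higher in both lines (adding *URGCP-MRPS24*), and the ratio tests of *HSPE1-MOB4* and *INO80B-WBP1* gave p = 0.0312 each, the smallest that 64 sign flips allow in an exact permutation test. In all, 68 of the 123 had too few counts for any sgRNA or allele comparison, and how far depth, low expression or unassigned reads account for this was not tested.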
